A study of Glycine max with 12 samples.

Results

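The subject is the late root response of soybean to aluminium (Al), read from the 4 arrays labelled 24 h in a series of 12. The members were chosen by that label. They form 2 pairs, each with 1 Al array and 1 control array, 1 pair for each of 2 varieties. GF, written out as Guangfengmaliaodu in the labels, is given there as Al-sensitive, and KF as Al-tolerant. Per the labels, seedlings grew for 3 days in damp sand and then stood in 0.5 mM CaCl2 at pH 4.3 with 25 µM AlCl3 or with none, so that the controls met the acid solution too. Whole-root RNA was hybridised to Affymetrix soybean arrays, 0.1 µg of total RNA for each. The other 8 arrays, 4 at 6 h and 4 at 12 h, served here to judge how much an Al effect varied and which effects came late. Each condition has 1 array, so both varieties together give n = 2 pairs at 24 h. In the main fit a p-value measures an effect against the disagreement of Al effects between the varieties, pooled over the 3 times. Where a 24 h pair was left out, that spread came from the 6 h and 12 h pairs alone. In additive fits it came from departures from additive terms for variety and time. GF and KF are 1 variety each, and a difference between them cannot be told apart from a difference between single arrays.

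Aluminium becomes soluble as a toxic ion in acid soil and stops root elongation within hours, mainly at the root tip. Plants that tolerate it release organic acids such as citrate and malate, which bind the ion outside the root, through transporters of the MATE and ALMT families, and the zinc finger factor STOP1 switches several of these genes on in Arabidopsis. After longer exposure the wall stiffens, reactive oxygen builds up and cell division in the tip declines.

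Values are log2 of the deposited intensity, and an effect is the Al array minus the control array of the same variety, called a log2 ratio. The 23 background probe sets, which match no plant sequence, set the lower limit: a probe set counted as above background on an array when it passed the 95th percentile of these 23 on that array. Where values are said to be floored at the background, the floor was 2.22, the highest background median of any array. That floor lies below the 95th percentile limits of the 24 h arrays, which ran from 4.92 to 6.18. The GF control array stood apart. Its background median was 2.22, against 1.78 in the GF Al array, 1.86 in the KF Al array and 1.82 in the KF control array, and only 4.99% of the tested probe sets passed its limit, against 12.7% to 14.3% on the other 3. In the GF pair, probe sets for the soil bacterium Bradyrhizobium, of which there are 8250, had a median log2 ratio of −0.39, and the poly-A spikes, which were added from outside, one of −0.87. In the KF pair those medians were 0.02 and −0.29. The part of the raised background in the results was not tested, and the main counts that rest on the GF control array are also given without it below.

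Al moved many genes in both varieties, and mostly the same way. Between Al and control, 7083 probe sets differed at least 2-fold in GF (4349 higher and 2734 lower), which is 14.3% of the 49646 tested. In KF 12568 did (5594 higher and 6974 lower), or 25.3%. Both pairs held 3434 that were higher and 2200 that were lower at least 2-fold, 6.92% and 4.43% of those tested. These shared probe sets are 79.5% of the GF list and 44.8% of the KF list. Only 34 probe sets were higher in GF and lower in KF by that size, and 5 were lower in GF and higher in KF. With the mean of the GF controls of 6 h and 12 h in place of the GF control array, 8353 differed in GF, and both pairs held 3291 higher and 3619 lower. These counts have no test, since each pair is 1 array against 1. At 6 h 887 probe sets were at least 2-fold higher in both varieties and 310 lower, and at 12 h 1668 were higher and 686 lower.

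**Figure D1:**
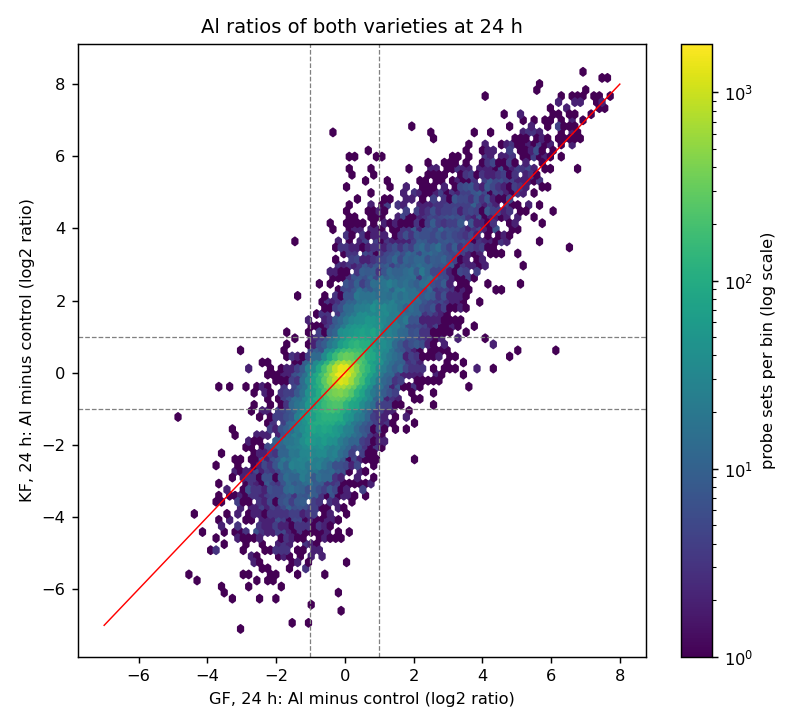
Log2 ratios of Al over control at 24 h for 49646 probe sets, GF on the horizontal axis and KF on the vertical axis, coloured by the number of probe sets in each bin on a log scale, with dashed lines at 2-fold and a red line where both ratios are equal. The cloud runs along the diagonal (Pearson correlation across probe sets 0.8), and is steeper than the line of equal ratios.

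The log2 ratios of both varieties correlated at 0.8 across probe sets, which are not independent and share their arrays. The ratio was larger in KF for 76.2% of the shared rises and 87.3% of the shared falls, against 61.9% of all probe sets tested. Shared rises had a median log2 ratio of 2.12 in GF and 2.73 in KF, and shared falls medians of −1.40 in GF and −2.28 in KF. In limma's fit, in which an effect is judged across both varieties, 9681 probe sets passed an adjusted p of 0.05, which is 19.5% of those tested, and are said to be called. Of these 5247 were higher with Al (10.6%) and 4434 lower (8.93%). The split moved with the scaling: higher probe sets made up 54.2% of the calls as deposited, 64.3% after cyclic loess normalization, 69.8% with values floored at the background and 75.8% when the arrays were aligned on the Bradyrhizobium probe sets. The GF control array can be left out only in a fit with additive terms for variety and time, since its pair would otherwise drop out whole. That fit gave 9364 calls without the array, 48.6% of them higher, and 11639 with all arrays, 50.5% of them higher. Leaving out the whole KF pair gave 5101 calls, and leaving out the GF pair 12533. Under that alignment the median of all tested probe sets at 24 h was 0.36 in GF, against −0.04 as deposited, so falls are best read relative to that shift.

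The 12 largest shared rises were genes all but silent in the controls. Their values in the GF and KF controls reached 3.43 at most, below the background limit, and their Al values lay between 7.7 and 10.68, above it on both Al arrays. Since the control side is only a limit, a rise is given as at least so many fold. Every such bound, for rises and falls, is taken on the mean of both varieties, with values below background set to the limit of their array. The smallest bound was 5.96-fold and the largest 28.8-fold. Passing the test and a bright array in each pair were conditions for being named, so neither is a result. The adjusted p in limma's fit ran from 7.52e-05 to 0.000663, and was 0.0502 for LOC100526892 with values floored at the background. They held 2 neighbouring syntaxin genes, 2 zinc finger genes, 2 MYB genes and 4 uncharacterized ones. Large at 24 h does not mean late: 6 of the 12 were called in the 24 h minus earlier contrast described below. LOC100793725, which was not, already had log2 ratios of 7.04 in GF and 6.51 in KF at 6 h.

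LOC100793725, a putative syntaxin-24-like gene (GLYMA03G35930, chromosome 3, 42985148 to 42986060 in the array annotation), had values of 9.8 in GF and 9.61 in KF with Al, against 2.08 in GF and 1.39 in KF without. Syntaxins are SNARE proteins, which drive fusion of vesicles with a target membrane. All 4 values were far apart by treatment and close between varieties, a rise of at least 16.4-fold. Its neighbour LOC100795302 (GLYMA03G35980, chromosome 3, 42999251 to 43000265) had 8.83 and 8.97 with Al, against 1.33 and 1.7 without, a rise of at least 9.4-fold. The array annotation marks neither probe set as able to bind several genes.

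LOC100801176, a nudix hydrolase 2-like gene (GLYMA20G06680, chromosome 20, 9023069 to 9026925), had 9.68 in GF and 9.92 in KF with Al, against 2.24 and 1.7 in the controls, at least 17.5-fold higher. Nudix enzymes cleave nucleoside diphosphates joined to other groups, and some clear oxidised or signalling nucleotides. The uncharacterized LOC100783747 was the brightest of the 12 with Al, at 10.35 and 10.68, against 3.43 and 2.34 without. It was at least 28.8-fold higher.

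2 genes for C2H2 zinc finger proteins like ZAT11, a stress-responsive factor in Arabidopsis, rose together. LOC100781211 (GLYMA13G40860, chromosome 13, 41313666 to 41314265) had 8.67 in GF and 9.42 in KF with Al, against 1.64 and 1.61 without, and was at least 10.4-fold higher. LOC100802760 (GLYMA11G15140) had 8.81 and 9.74, against 1.98 and 2.15, at least 12.2-fold higher. The cytochrome P450 gene LOC100795308, CYP94A1-like (chromosome 19, 42072643 to 42074253), had 8.49 and 8.5 with Al, against 1.05 and 1.08 without. In Arabidopsis, CYP94 enzymes oxidise fatty acids and some inactivate jasmonate.

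The MYB genes were LOC778082, annotated as MYB67 (GLYMA01G02070, chromosome 1, 1596902 to 1598462), at 9.07 and 9.04 with Al against 1.4 and 1.44 without, and LOC100778159, annotated as a MYB4-like repressor, at 8.46 and 8.68 against 1.04 and 1.39. MYB4 in Arabidopsis restrains genes of the phenylpropanoid pathway, from which lignin and flavonoids derive.

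**Figure D2:**
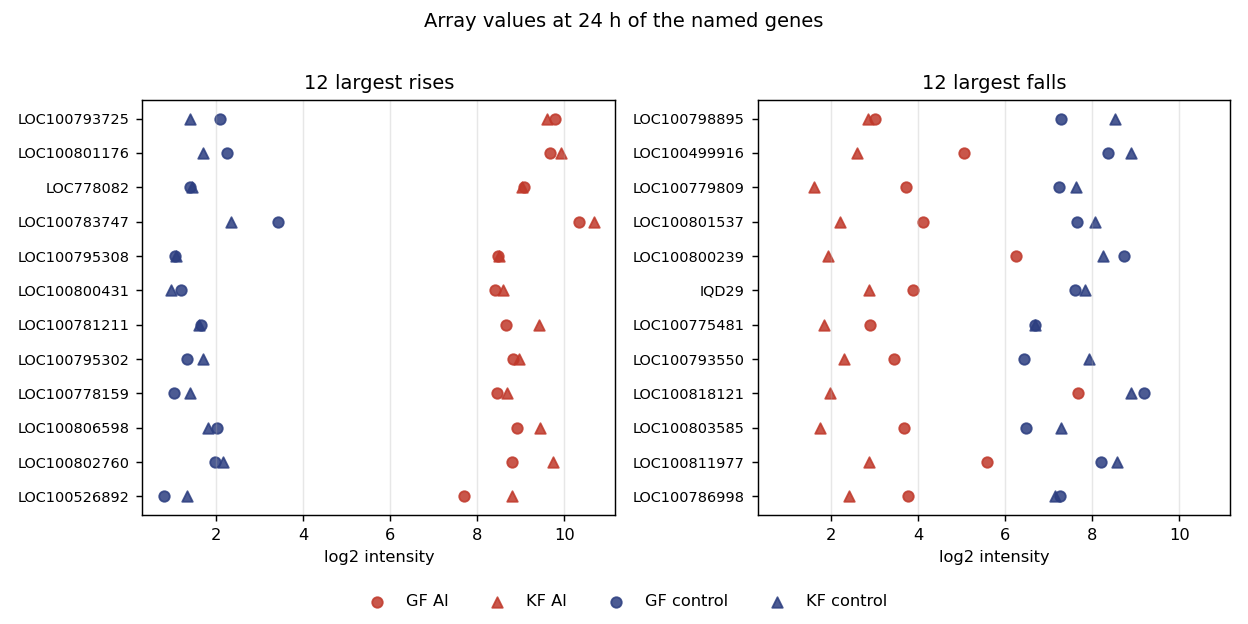
Log2 intensity on the 4 arrays at 24 h (red, Al; blue, control; circles, GF; triangles, KF) for the 12 largest rises (left) and the 12 largest falls (right). With Al the genes on the left sit between 7.7 and 10.68, and without it at or below 3.43, while on the right the KF Al triangles sit lowest in every gene.

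The 12 largest falls were of a different kind. They started from 6.43 to 9.19 in the controls, above the limit, which the naming rule asks of the brighter array of each pair. The limit of the GF control array was 6.18. Of the 12, 8 were below the background limit on both Al arrays. In all 12 the KF pair fell further than the GF pair. The adjusted p ran from 0.00027 to 0.0334, passing again being a condition for being named, and 9 of the 12 genes are uncharacterized. With values floored at the background LOC100499916, LOC100800239, LOC100793550, LOC100818121, LOC100803585 and LOC100811977 missed the threshold (adjusted p 0.0581 to 0.214). LOC100818121 had log2 ratios of −1.51 in GF and −6.92 in KF. LOC100798895 (GLYMA06G09170, chromosome 6, 6752175 to 6753888) had 3 in GF and 2.84 in KF with Al, against 7.29 and 8.52 without, a fall of at least 7.73-fold. Its Al values in both varieties lay below its control values in both varieties.

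Among the annotated falls, LOC100786998 is annotated as a probable nitrite transporter like At1g68570 (GLYMA03G27830, chromosome 3, 35605426 to 35610207), and had 3.77 and 2.41 with Al, against 7.25 and 7.14 without, at least 4.72-fold lower. LOC100775481, ABIL5-like, whose Arabidopsis relatives take part in the complex that organises actin, had 2.88 and 1.83, against 6.68 in both controls, at least 3.3-fold lower. IQD29, whose probe set can bind several genes, had 3.87 and 2.87, against 7.59 and 7.82, at least 6.73-fold lower. The organ-specific S2-like gene LOC100800239 differed more between varieties, at 6.24 in GF and 1.93 in KF with Al, against 8.72 and 8.24 in the controls (adjusted p = 0.00987, and 0.111 with values floored at the background).

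Gene families were gathered by annotation text, counting probe sets. The bar plot of families shows which way the calls fell, and the largest shift was among regulators. Of 124 WRKY factors, regulators of defence and stress, 76 rose and none fell at 24 h. That is 61.3%, against 10.6% of all probe sets tested. Their median log2 ratio was 1.21 in GF and 1.59 in KF, against −0.04 and −0.07 for all probe sets. WRKY30 (GLYMA17G33891) had 8 in GF and 7.53 in KF with Al, against 1.68 and 1.07 without, at least 4.27-fold higher (adjusted p = 8.11e-05). LOC100812027, WRKY53-like, had 8.02 and 8.6, against 1.8 and 2.1, at least 6.23-fold higher (adjusted p = 0.000149). In the additive fit 71 of the 124 rose and 1 fell without the GF control array, and 79 rose and none fell with all arrays. With values floored at the background 41 rose and none fell. Of the 124, 93 were higher in both pairs by any size and 12 lower in both. Only 52 of the 124 had a signal above background in both pairs, so some of the 76 rises lack it. Of 87 NAC factors, 46 rose and 1 fell, with medians of 0.92 in GF and 1.44 in KF. NAC genes turn on senescence and stress programmes. LOC100791680, NAC8-like, had 7.4 and 8.59 with Al, against 1.19 and 1.39, at least 5.01-fold higher (adjusted p = 0.000192). These are the 2 families with the highest share called higher. Over all lists, 56 counts of calls reached 10. Without the GF control array, in the additive fit, 54 of these were within 1.5 times the count as deposited, which came from another model. Against the additive fit with all arrays, 50 were within 1.5 times and 6 were not. These 6 were rises of bZIP, flavonoid and lignin genes and falls of bHLH, flavonoid and sugar genes, all fewer without the array. Against the counts as deposited the exceptions were flavonoid enzymes, with 6 falls, against 11, and translation factors, with 27, against 17.

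**Figure D3:**
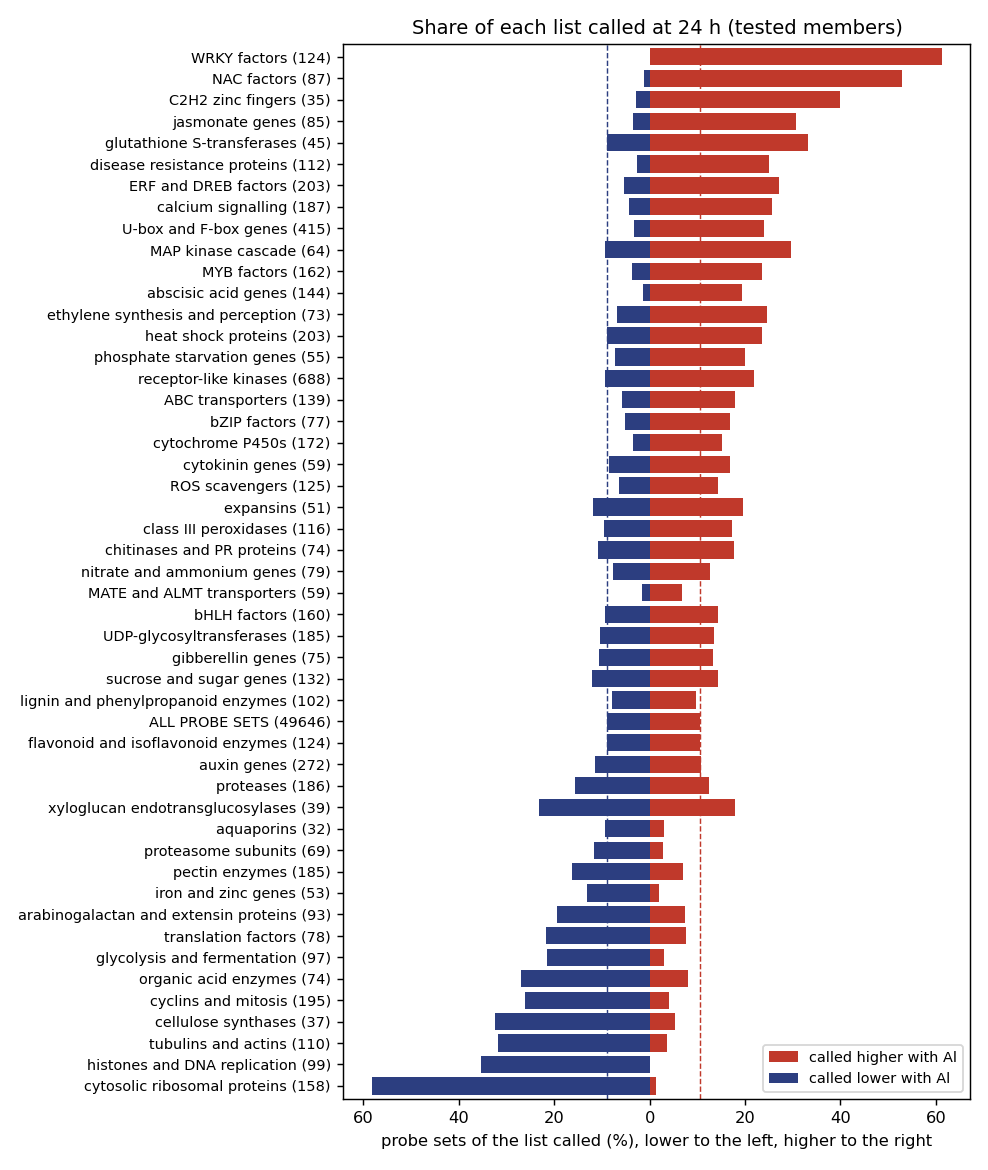
Share of the tested members of each list called at 24 h in limma's fit, higher with Al to the right (red) and lower to the left (blue), with the number of members in brackets and the shares of all probe sets as dashed lines (10.6% higher, 8.93% lower). WRKY factors reach 61.3% higher and none lower, and cytosolic ribosomal proteins 58.2% lower and 1.27% higher.

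Other regulators moved less evenly, and their counts are to be read against the 10.6% of all probe sets called higher and 8.93% called lower. Among 35 C2H2 zinc finger genes 14 rose and 1 fell, and among 203 ERF and DREB factors, ethylene and dehydration regulators, 55 rose and 11 fell. Of 162 MYB genes 38 rose and 6 fell, while bHLH genes, with 23 rises and 15 falls among 160 (14.4% and 9.38%), were near the shares of all probe sets. The ERF gene AP2-5 (GLYMA06G11700) was already at 4.78 and 5.03 in the controls and had 9.7 and 10.21 with Al, at least 19.5-fold higher by the background limit.

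Jasmonate genes had 26 rises and 3 falls among 85 (30.6% and 3.53%, against 10.6% and 8.93% of all probe sets), and the TIFY genes within them 8 rises and 2 falls among 22. TIFY (JAZ) proteins repress jasmonate signalling and are themselves induced by it. LOC100803886, TIFY 5A-like (GLYMA15G09980), had 8.66 in GF and 9.04 in KF with Al, against 2.05 and 1.36 without, at least 9.07-fold higher (adjusted p = 0.000101). LOC100816003, annotated as a putative 12-oxophytodienoate reductase 11-like gene, had 6.94 and 7.36, against 1.43 and 1.3, at least 2.8-fold higher (adjusted p = 0.000509).

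Ethylene genes had 18 rises and 5 falls among 73 (24.7% and 6.85%, against 10.6% and 8.93% of all probe sets). The ACC synthase gene LOC100797692, for the step that commits to ethylene, had 5.33 and 6.17 with Al, against 1.27 and 0.88 (adjusted p = 0.000179). That rise is at least 1.06-fold on the mean of both varieties. The GF Al value lies below the GF control limit of 6.18, so no bound holds in GF alone, and the KF limit is 5.15. Gibberellin genes as a whole, with 10 rises and 8 falls among 75 (13.3% and 10.7%), were near the shares of all probe sets. The 17 gibberellin 2-oxidase probe sets, which inactivate gibberellins, had 4 rises and no fall, and the 33 for 3-oxidases and 20-oxidases, which make active forms, had no rise and 5 falls, and the difference between these groups was not tested. GA2OX5 (GLYMA13G28970) had 5.22 and 6.66 with Al, against 1.54 and 1.31 (adjusted p = 0.000385). It was at least 1.21-fold higher on the mean of both varieties, but its GF Al value too lies below the GF control limit. Abscisic acid genes had 28 rises and 2 falls among 144, and auxin genes 29 rises and 31 falls among 272. The auxin shares, 10.7% and 11.4%, are close to those of all probe sets.

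Most signalling genes were not called, and among those called more rose than fell, against 10.6% of all probe sets higher and 8.93% lower. Calcium signalling genes had 48 rises and 8 falls among 187, and calmodulin-like genes within them 18 rises and 1 fall among 56. LOC100775872, PBP1-like, for a small calcium-binding protein, had 8.18 in GF and 8.37 in KF with Al, against 1.61 and 1.18 without, at least 6.1-fold higher (adjusted p = 0.000181). Receptor-like kinases had 150 rises and 64 falls among 688, and MAP kinase genes 19 rises and 6 falls among 64. Disease resistance genes had 28 rises and 3 falls among 112.

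Redox and detoxification lists differed in their calls, which are to be read against 10.6% of all probe sets higher and 8.93% lower. Glutathione S-transferases, which couple glutathione to toxic molecules, had 15 rises and 4 falls among 45. GSTU42 (GLYMA10G33650) had 7.09 in GF and 7.68 in KF with Al, against 2.04 and 1.28 without, at least 3.28-fold higher (adjusted p = 0.000241). Of the ABC transporters, pumps some of which move glutathione conjugates into the vacuole, 25 rose and 8 fell among 139. LOC100794567, ABCC3-like, had 8.43 and 9.03, against 1.75 and 2.11, at least 8.35-fold higher (adjusted p = 0.000208). The respiratory burst and alternative oxidase genes were few, with 7 rises and no fall among 18, and medians of 0.89 in GF and 0.76 in KF. Class III peroxidases, which cross-link wall phenolics, had 20 rises and 11 falls among 116 (17.2% and 9.48%). Scavengers of reactive oxygen had 18 rises and 8 falls among 125, with medians of −0.14 in GF and −0.07 in KF, and among the 26 glutaredoxins on that list 5 rose and none fell. UDP-glycosyltransferases, which attach sugars to small molecules, had 25 rises and 19 falls among 185, or 13.5% and 10.3%, near the shares of all probe sets.

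In protein turnover, U-box and F-box genes had 99 rises and 14 falls among 415 (23.9% and 3.37%, against 10.6% and 8.93% of all probe sets). The 69 proteasome subunit probe sets had 2 rises and 8 falls (2.9% and 11.6%), the falls near the share of all probe sets. The 12 autophagy genes had 6 rises and no fall, with medians of 0.76 in GF and 1.08 in KF. LOC100809347, ATG9-like, for a membrane protein that feeds the growing autophagosome, had 5.78 and 6.63 with Al, against 2.42 and 2.69 without (adjusted p = 0.000273). It was at least 1.45-fold higher on the mean of both varieties, though its GF Al value lies below the GF control limit of 6.18. The heat shock list had 48 rises and 18 falls among 203. Of the 43 heat stress transcription factors on it 20 rose, while small heat shock proteins named by size had 2 rises and 3 falls among 31. HSF-31, A-4a-like, had 6.52 and 7.6, against 1.58 and 1.62, at least 2.62-fold higher (adjusted p = 0.000194).

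Among the lists, many falls were in genes of growth. Of 158 cytosolic ribosomal protein probe sets 92 fell and 2 rose, 58.2% against 8.93% of all probe sets. Their median log2 ratio was −0.91 in GF and −1.27 in KF. In the additive fit 90 fell without the GF control array and 101 with all arrays. With values floored at the background 34 did. Most members moved the same way: 137 of 158 were lower in both pairs at 24 h and 6 higher, and 116 were lower in all 6 pairs of the series. LOC100806256, L3-like (GLYMA10G36780), had 4.84 in GF and 4.23 in KF with Al, against 6.62 and 6.9 without, at least 3.49-fold lower (adjusted p = 0.00293). The exception LOC100779884, L10-like, had 5.39 and 6.85, against 2.67 and 2.76 (adjusted p = 0.00229, and 0.0527 with the background floor). Translation factors had 6 rises and 17 falls among 78.

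Histone and replication genes had 35 falls and no rise among 99, with medians of −0.42 in GF and −0.84 in KF. That is 35.4% lower, against 8.93% of all probe sets lower and 10.6% higher. Histone H2A-like LOC100783903 (GLYMA13G40900) had 4.1 and 4.17 with Al, against 6.84 and 7.13 without, at least 4.09-fold lower (adjusted p = 0.000656). The replication clamp PCNA-like gene LOC100817651 had 5.12 and 4.31, against 6.88 and 8.1, with the Al arrays lower in both varieties (adjusted p = 0.00672). Cyclin and mitosis genes had 8 rises and 51 falls among 195 (4.1% and 26.2%). The B-type cyclin CYCB1;1 (GLYMA03G27910), which drives entry into mitosis, had 4.09 in GF and 2.68 in KF with Al, against 6.59 and 7.22, at least 3.86-fold lower (adjusted p = 0.00244). Of the tubulin and actin genes, 4 rose and 35 fell among 110 (3.64% and 31.8%), and of the 40 tubulin probe sets 19 fell and none rose. The tubulin beta gene LOC100819883 had 6.34 and 3.93, against 8.16 and 8.76 (adjusted p = 0.0107). With values floored at the background the adjusted p was 0.0545 for CYCB1;1, 0.085 for LOC100817651 and 0.118 for LOC100819883.

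Among wall lists cellulose synthases leaned to falls, and all counts are to be read against 10.6% of all probe sets higher and 8.93% lower. Cellulose synthase genes had 2 rises and 12 falls among 37, and the 20 for catalytic subunits 8 falls and no rise. The catalytic subunit LOC100795809, CesA6-like, had 5.49 in GF and 2.35 in KF with Al, against 7.23 and 7.06 without (adjusted p = 0.0233). Its adjusted p was 0.174 with values floored at the background and 0.182 without the KF pair. Arabinogalactan and extensin genes had 7 rises and 18 falls among 93. Pectate lyase and polygalacturonase genes, which cut pectin, had 4 rises and 19 falls among 100. Pectinesterases had 8 and 11 among 76, the rises near the share of all probe sets. Xyloglucan endotransglucosylases, which cut and rejoin a wall polymer, had 7 rises and 9 falls among 39. LOC100807063 of that family had 7.04 and 7.1, against 1.33 and 1.79, at least 2.65-fold higher (adjusted p = 7.71e-05).

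Carbon metabolism lists differed. Glycolysis and fermentation genes had 3 rises and 21 falls among 97, and organic acid enzymes 6 rises and 20 falls among 74 (21.6% and 27% lower, against 8.93% of all probe sets). Sucrose and sugar genes had 19 rises and 16 falls among 132, or 14.4% and 12.1%. The mitochondrial malate dehydrogenase LOC100777296 had 5.39 in GF and 3.71 in KF with Al, against 7.3 and 7.27 without (adjusted p = 0.00313, and 0.0548 with the background floor). Some of these family falls depend on the scaling: with arrays aligned on the Bradyrhizobium probe sets the called falls of organic acid enzymes numbered 3 and of ribosomal proteins 53, and the GF medians of cyclins, tubulins, glycolysis, organic acid enzymes and cellulose synthases were above 0, though below the 0.36 of all probe sets.

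The genes best known for aluminium tolerance were measured whatever their values. The strongest was LOC100792203, a FRD3-like MATE gene for a citrate exporter (GLYMA13G27300, chromosome 13, 30471532 to 30477485). It had 7.62 in GF and 7.08 in KF with Al, against 1.55 and 2.7 without, at least 3.21-fold higher (adjusted p = 0.000968), and its difference between 24 h and the earlier times was not called (−0.48, adjusted p = 0.786). The gene with symbol MATE, described as an aluminum-activated citrate transporter, had 5.04 and 4.92, against 3.53 and 3.57, with an adjusted p of 0.00868 and only the GF Al array above background. The STOP1 homolog LOC100802769 (GLYMA12G30285) had 5.87 and 6.85, against 4.74 and 5.3, a log2 ratio of 1.34 ± 0.27 (standard error, adjusted p = 0.0144). It missed the threshold without the GF control array in the additive fit (adjusted p = 0.0725), which it passed there with all arrays, and also without the KF pair (0.077) and with values floored at the background (0.0597). As deposited, 2 of the 5 STOP1-like probe sets were called higher. Only 1 of the 5, LOC100802769, was above background on any array at 24 h.

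ALS3 is an ABC-type protein needed for Al tolerance in Arabidopsis. Neither ALS3-like gene was called at 24 h. LOC100802735 had 7.82 in GF and 6.49 in KF with Al, against 6.7 and 6.33 (0.64 ± 0.31, adjusted p = 0.208, but 1.23 and 0.017 after cyclic loess normalization), and LOC100814304 had 5.29 and 4.71, against 5.24 and 5.88 (−0.57 ± 0.38, adjusted p = 0.362). Of the 24 ALMT probe sets 17 were tested, 1 was above background on any array at 24 h, and 1, ALMT33, was called higher though below background on all 4 arrays (adjusted p = 0.0129, and 0.0707 without the GF pair).

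How much came late was tested as the Al effect at 24 h minus the mean of the effects at 6 h and 12 h. This passed for 1480 probe sets, 2.98% of those tested, 1252 of them higher (2.52%) and 228 lower (0.459%). The count depends on single pairs: it was 6729 without the GF pair at 24 h, 904 without the KF pair at 24 h, and 320 to 514 without 1 of the earlier pairs. In the additive fit it was 1445 without the GF control array and 2593 with all arrays. Of the 1252, 1248 were also called higher at 24 h. Their median log2 ratio was 0.27 in GF and 0.42 in KF at 6 h, 0.54 and 0.72 at 12 h, and 2.77 and 3.34 at 24 h. In 659 of them no earlier pair of the 4 reached 2-fold. WRKY genes had 26 such late rises among 124, or 21%, and jasmonate genes 14 among 85, 8 of them TIFY. Ribosomal protein genes had no late call in either direction, and their medians, averaged over varieties, were −0.48 at 6 h, −0.71 at 12 h and −1.10 at 24 h.

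The 6 largest late rises differed in how flat they were at 6 h and 12 h. LOC100799496, an F-box gene like At4g22030 (GLYMA09G00720, chromosome 9, 389910 to 391184), had log2 ratios of −0.41 in GF and −0.06 in KF at 6 h and of −0.15 and −0.25 at 12 h. At 24 h its values were 8.12 and 8.41 with Al, against 1.88 and 1.67, at least 6.06-fold higher, and the late difference was 6.71 (adjusted p = 0.000615). LOC100802187, elicitor-responsive protein 1-like, stayed within 0.18 of no change at 6 h and 12 h and had 7.32 and 7.53 with Al at 24 h, against 1.05 and 1.25.

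LOC100786161, a lignin-forming anionic peroxidase-like gene (GLYMA20G31190, chromosome 20, 39845520 to 39847220), had 7.36 in GF and 7.17 in KF with Al at 24 h, against 0.78 and 0.82 (late difference 6.09, adjusted p = 0.000834). LOC100812201, glutamate decarboxylase 1-like, makes GABA from glutamate. Its log2 ratios at 6 h and 12 h lay between 0.73 and 1.21. At 24 h it had 8.34 and 7.86, against 1.48 and 1.46 (late difference 5.62, adjusted p = 0.000834). LOC100808032, like the resistance gene At5g66900, had the largest earlier ratio of the 6: KF already had a log2 ratio of 4.04 at 12 h, against 0.83 in GF. Its late difference of 5.79 (adjusted p = 0.0163) had an adjusted p of 0.19 with the background floor and of 0.0626 without the KF pair at 24 h.

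**Figure D4:**
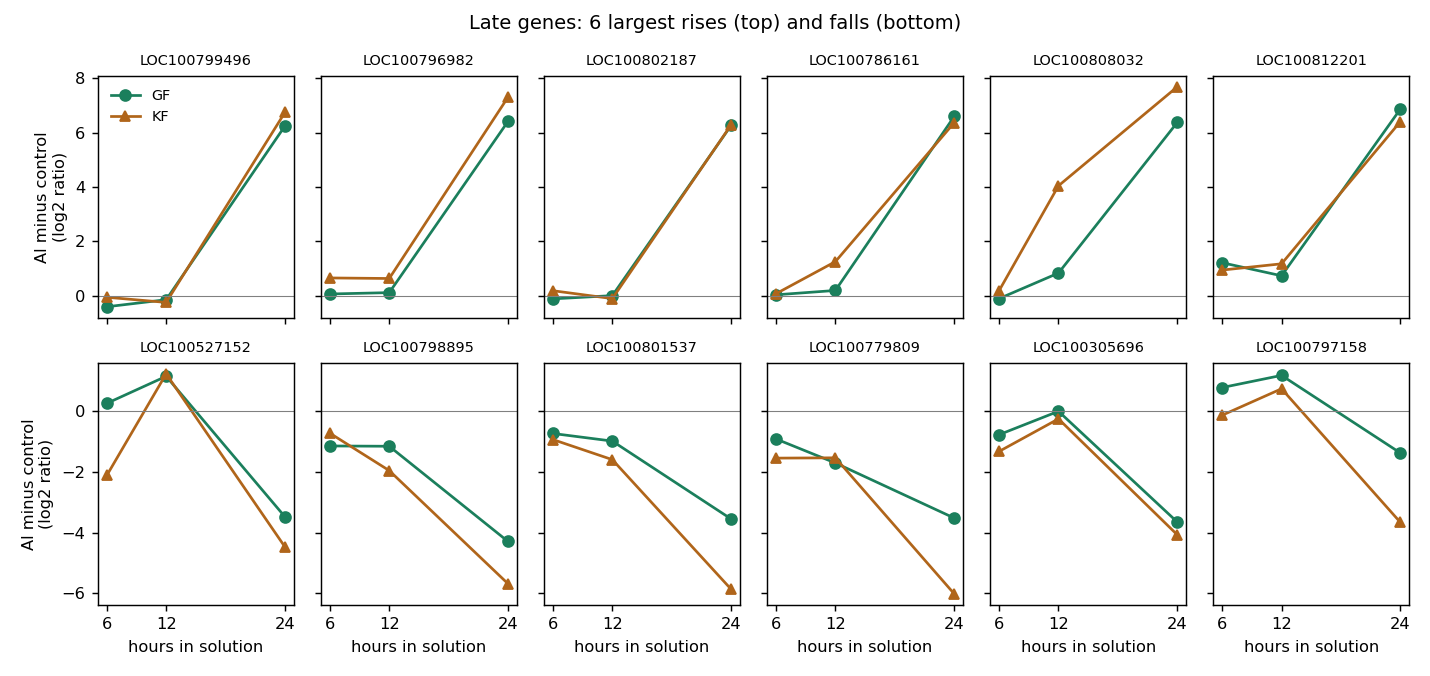
Log2 ratio of Al over control against hours in solution (6, 12 and 24 h) for the 6 largest late rises (top) and 6 largest late falls (bottom), GF as green circles and KF as orange triangles, 1 pair of arrays a point. All upper genes are highest at 24 h, LOC100808032 already has 4.04 in KF at 12 h, LOC100786161 1.25 in KF at 12 h and LOC100812201 0.73 to 1.21 at the earlier times, and the lower genes drop furthest at 24 h in both varieties.

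All 6 largest late falls are uncharacterized genes. LOC100305696 (GLYMA18G06270, chromosome 18, 4848578 to 4850354) had 3.2 in GF and 2.15 in KF with Al at 24 h, against 6.85 and 6.21 without, at least 2.98-fold lower (late difference −3.27, adjusted p = 0.00381). LOC100527152 had a late difference of −4.10 (adjusted p = 0.0223), with log2 ratios of 1.14 and 1.22 at 12 h. With values floored at the background none of the 6 late falls passed, with adjusted p from 0.0535 for LOC100305696 to 0.258 for LOC100797158. Without the KF pair at 24 h the adjusted p was 0.0761 for LOC100527152 and 0.0588 for LOC100797158. Without the GF control array, in the additive fit, it was 0.134 for LOC100797158 and 0.0577 for LOC100801537.

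The varieties pointed in opposite directions in few genes whose brighter array in each pair was above background. All 4 named here were higher in GF and lower in KF. In LOC100777356, GIGANTEA and LOC100788421 the GF control and KF Al values lay below the limits of their arrays. The GF Al value of LOC100788421 also lies below the GF control limit of 6.18. LOC100777356, a probable methyltransferase PMT16-like gene, had 6.82 in GF and 4.45 in KF with Al, against 5.01 in GF and 6.09 in KF without. GIGANTEA, a clock-controlled regulator of flowering whose probe set can bind several genes, had 6.44 and 4.29, against 5.24 and 6.15. LOC100788421, for an alpha-glucan water dikinase that phosphorylates starch, had 5.54 and 4.25, against 4.32 and 5.61, and LOC100802444 had 7.78 and 5.73, against 6.75 and 7.28. No gene that met the same brightness rule was lower in GF and higher in KF. The difference between varieties within 24 h was not tested.

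The tissue label was checked on marker genes. All 18 seed storage probe sets were below background on all 4 arrays at 24 h. Of 18 nodule marker probe sets 15 were, both leghemoglobin genes among them, and 2 were above background on all 4. Of 54 photosynthesis probe sets 50 were below background on all 4. Of 69 endodermis probe sets, which mark the root's inner barrier layer, 58 were below background on all 4 arrays and 2 above it on all 4. Most of these root markers were thus below background too, and the check does not by itself establish the tissue. Among the 53 tested, 10 fell and 7 rose (18.9% and 13.2%, against 8.93% and 10.6% of all probe sets). Casparian strip gene LOC100775221 had 4.84 in GF and 2.49 in KF with Al, against 6.96 and 6.09 without, at least 2.97-fold lower (adjusted p = 0.0149, but 0.132 with the background floor and 0.122 without the KF pair). In bulk roots, fewer cells of a type and less RNA per cell cannot be told apart.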

How the data were processed

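The deposited intensity values of 12 Affymetrix arrays, 1 per probe set and array, were used as the authors left them, on a linear scale that was read from the values. How the authors normalized and summarised them is not given in the sources used here. A further 24 per-sample columns with numbers in place of sample names were not used. The log2 of each intensity was taken with no pseudocount, and the dimmest 0.25 of the main probe sets, with a mean below 1.12, were dropped, leaving 49646 of 66195. Of the main probe sets 33493 carry 1 gene, and 31963 of these were found among RefSeq genes, from which current symbols were taken. Coordinates come from the deposited annotation, whose transcripts cite assembly V1.0.

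The fits used limma 3.58.1 in R 4.3.3 (data.table version 1.17.8), by lmFit and eBayes with trend, with a block for each variety and time and an Al coefficient for each time (3 residual degrees of freedom). Adjusted p-values are Benjamini-Hochberg over all 49646. In simulated data the Al effect at 24 h was recovered for 60% of changes of 2 log2 units and 4% of changes of 1, with 3 false calls among 49646, and the late difference for 23% and 0%, with none. The simulated noise was independent between probe sets, and few probe sets were changed. No shift of a whole array was simulated, so these false calls cannot speak to the raised background of the GF control array. Precision is limited by there being 1 array for each condition, so p-values measure only the spread between these samples.

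The named genes are the 12 largest shared rises and falls called at 24 h, the 6 largest late differences each way, up to 4 genes with opposite ratios each way and up to 3 members a list. Each carries 1 gene, was at least 2-fold in both pairs where the rule asks for it, and had the brighter array of each pair above background. Known Al genes were named whatever their values. The members and lists were chosen with earlier results of these data known. Alternatives were other filters, normalizations, floors, fits and left-out arrays. Promoter sequences were not analysed here.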

Additional observations from a re-analysis of the deposited data

Results flagged for a closer look

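At 24 h the Al effect differed from the mean of the effects at 6 h and 12 h in 12 named genes, tested in limma's fit. The late differences in log2 units were 6.71 for LOC100799496, 6.5 for LOC100796982, 6.29 for LOC100802187, 6.09 for LOC100786161, 5.79 for LOC100808032 and 5.62 for LOC100812201. Those of the late falls were −4.1 for LOC100527152, −3.73 for LOC100798895, −3.64 for LOC100801537, −3.33 for LOC100779809, −3.27 for LOC100305696 and −3.15 for LOC100797158. With values floored at the background all 6 late falls and the rise of LOC100808032 (adjusted p = 0.19) missed the threshold.

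In 4 genes the Al ratios of GF and KF at 24 h had opposite signs, each at least 2-fold. GF minus KF was 3.45 for LOC100777356, 3.05 for GIGANTEA, and 2.59 for both LOC100788421 and LOC100802444. In all of these but LOC100802444, 1 array of each pair was below background. The difference was not tested, because each variety has 1 pair of arrays at 24 h.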

How the results depend on the processing

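Sizes at low signal depend on the background, which was highest on the GF control array. For the Al effect at 24 h, 9681 probe sets were called as deposited (5247 higher, 4434 lower). Values floored at the background gave 3422 calls (2389 and 1033). The 24 h arrays alone, with 1 residual degree of freedom, gave 4310 calls (2952 and 1358). Lower calls numbered 1932 under the Bradyrhizobium alignment, which was chosen after seeing the data, 2713 with the arrays of 6 h left out and 2877 with those of 12 h left out. For the late difference (1480 calls, 1252 higher, 228 lower) the floor left 176 (156 and 20), additive terms gave 2593 (1945 and 648), and lower calls were 475 after quantile normalization and 96 under the Bradyrhizobium alignment. Leaving out 1 pair or array at a time gave 5101 to 12533 calls for the Al effect (3512 to 5797 higher, 1589 to 6736 lower) and 320 to 6729 for the late difference (311 to 3374 higher, 9 to 3355 lower). At 1.5-fold the pair counts were 13989 in GF and 19270 in KF, with 5194 higher and 4903 lower in both, and at 4-fold 2322, 5281, 1677 and 308. Shared falls numbered 1097 under the Bradyrhizobium alignment and 3619 with the GF control taken as the mean of its 6 h and 12 h controls. Lists with medians above 0 in both pairs numbered 4 with the floor and those below 0 numbered 6, and 2 were below 0 under the Bradyrhizobium alignment. The cause of these changes was not tested. Among the 208 effects of named genes followed, 63 lost their call with the floor, 18 without the KF pair and 12 without the GF control array in the additive fit. The Al effect of LOC100777356, 0.08 over both varieties, was −1.64 without the GF pair and 1.80 without the KF pair, and that of LOC100802444, −0.26 over both, was −1.55 and 1.04. The fit as reported was already paired, with a block for each variety and time. No replicate number could serve as a further block, because each condition has 1 array. Sequence motifs in promoters were not run.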

Other observations

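Nutrient and sugar genes held further rises at 24 h. AMT2.2, an ammonium transporter gene, had log2 intensities of 5.57 in GF and 6.2 in KF with Al, against 1.31 and 1.73 without. It was at least 1.16-fold higher on the mean of both varieties, but its GF Al value lies below the GF control limit of 6.18. The nitrate and ammonium list as a whole had 10 rises and 6 falls among 79. Its shares, 12.7% and 7.59%, were near the 10.6% and 8.93% of all probe sets. LOC100794764, a purple acid phosphatase 20-like gene for an enzyme that frees phosphate, had 6.52 and 5.59, against 1.76 and 0.95, and its late difference was 0 (adjusted p = 0.999). The hexose importer gene LOC100810831, sugar transport protein 13-like, had 8.07 and 8.29, against 2.84 and 2.54. GH3, for an enzyme that couples auxin to amino acids, had 5.35 and 6.52, against 0.91 and 1.15, with a late difference of 4.65 (adjusted p = 0.00107). At 24 h GH3 was at least 1.2-fold higher on the mean of both varieties, but its GF Al value too lies below the GF control limit.

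Some late rises lay side by side. Among 502 late rises of at least 2-fold in both pairs with 1 gene and a signal above background, 5 groups of 2 neighbours within 200 kb had the same family name, among them F-box genes on chromosomes 9 and 15. LOC100796453 lies 3.9 kb from LOC100796982 on chromosome 15, and had log2 intensities of 8.47 in GF and 9.31 in KF with Al, against 3.57 and 3.01 without.

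Outside the main category, the 124 chloroplast probe sets had median log2 ratios of −0.94 in GF and −0.73 in KF, and 34 were at least 2-fold lower in both pairs, none higher. The 232 positive control probe sets had medians of −0.71 and −1.06, with 78 at least 2-fold lower in both pairs and 4 higher. None of the 8250 Bradyrhizobium probe sets differed at least 2-fold in both pairs.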
